A study of Mus musculus with 6 samples.

Results

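Kruppel-like factors (KLFs) were examined in the whole pancreas of adult mice in which Ptf1a, the transcription factor that maintains acinar identity, had been deleted 2 weeks before. The members were the genes Klf2, Klf3, Klf4, Klf5, Klf6, Klf7, Klf9, Klf10, Klf13 and Klf15, chosen by name. Of these 10 genes, 9 had a row among the 10245 genes of the deposited table, and Klf7 was not analysed here. RNA-seq libraries came from 3 control mice (Ptf1a(CreER/+)) and 3 Ptf1a cKO mice (Ptf1a(CreER/fl)), each mouse a separate library. All 6 mice received tamoxifen by gavage at 0.25 mg/g on each of 3 consecutive days and were killed on day 14. The CreER coding sequence replaces that of Ptf1a on its allele, so the control mice carried a single functional copy of Ptf1a and were not wild type. Both genotypes of the study also include a Cre reporter, R26R EYFP, which the sample labels do not mention. Cre is driven by Ptf1a and therefore acts in acinar cells, not in every one of them, whereas the RNA came from the whole organ with its ducts, islets, vessels and stroma. The control mice were 4 months old (replicate 1 male, replicates 2 and 3 female) and the Ptf1a cKO mice 5 months old (replicate 2 male, replicates 1 and 3 female), so age and genotype cannot be told apart.

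KLFs are transcription factors with C2H2 zinc fingers near the C-terminus that bind CACCC and GC-rich sites in promoters and enhancers, close relatives of SP1. Their N-terminal parts differ, and members either activate genes through acetyltransferases such as EP300 or repress them through CTBP or SIN3A corepressors. Several are hormone or injury response genes: KLF9 and KLF15 are induced by glucocorticoids, KLF6 and KLF10 by growth factors and tissue damage, KLF2 and KLF4 by blood flow and by ERK5 signalling through MEF2 factors, and KLF5 supports the growth of epithelial progenitors. In the pancreas, KLF4 and KLF5 have been linked to the conversion of acinar cells into duct-like cells, which is called acinar-ductal metaplasia.

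The promoters of a member that fell (Klf15), a member that rose (Klf6) and the most abundant member that did not pass the test (Klf9) are shown because KLF proteins bind sites of the kind found in their own promoters. Each sequence is the 250 bases before the gene's annotated start, 5′ to 3′ on the gene's strand, from RefSeq in build GRCm38.p6, with sites of the KLF type (CACCC), GC boxes (GGGCGG) and E-boxes (CACGTG) read on both strands and set in capitals. None of these 3 motifs contains another, and the E-box reads the same on both strands. The windows lie at chr6:90462326-90462575 (Klf15), chr13:5861239-5861488 (Klf6) and chr19:23140976-23141225 (Klf9), each on the plus strand.
Klf15: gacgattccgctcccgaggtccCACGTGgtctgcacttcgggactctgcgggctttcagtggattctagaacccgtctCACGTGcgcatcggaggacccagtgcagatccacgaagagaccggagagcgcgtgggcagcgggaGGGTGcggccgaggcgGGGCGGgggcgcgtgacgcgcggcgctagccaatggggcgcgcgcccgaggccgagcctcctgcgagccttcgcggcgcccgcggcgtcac
Klf6: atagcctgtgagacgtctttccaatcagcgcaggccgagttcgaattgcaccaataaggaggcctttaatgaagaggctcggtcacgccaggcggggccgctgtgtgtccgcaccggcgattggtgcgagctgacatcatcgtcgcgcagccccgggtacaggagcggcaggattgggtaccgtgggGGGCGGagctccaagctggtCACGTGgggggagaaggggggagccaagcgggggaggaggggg
Klf9: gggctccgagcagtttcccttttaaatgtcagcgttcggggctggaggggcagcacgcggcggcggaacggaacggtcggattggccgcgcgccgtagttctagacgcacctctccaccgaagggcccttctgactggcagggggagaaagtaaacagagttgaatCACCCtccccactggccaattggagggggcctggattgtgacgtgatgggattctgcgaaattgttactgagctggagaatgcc

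The Klf15 window held 2 CACGTG E-boxes, 1 GC box and 1 CACCC site, with a GC content of 72%. The Klf6 window held 1 CACGTG E-box, 1 GC box and no CACCC site. The Klf9 window held 1 CACCC site and neither of the other marked motifs. Over the 32851 windows of the same length in the table of mouse promoters, 52% held the CACCC site, 32.7% a GC box and 6.02% an E-box. GC content ranged from 59.6% in Klf9 to 78.4% in Klf3 over the 7 matched members, and the median of all windows was 52.4%. The windows were matched for Klf2, Klf3, Klf4, Klf6, Klf9, Klf13 and Klf15. Klf5 and Klf10 had no entry. A match is a stretch of letters and not a measured binding site.

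Levels are given as normalized read counts on the authors' own scale, and fold changes are differences of log2 values after a pseudocount worth 3.41 normalized counts was added. A gene was called when its adjusted p in the limma fit over all 10245 genes was under 0.05. Ptf1a itself had 566, 601 and 652 normalized counts in control replicates 1 to 3 and 19.8, 70.1 and 10.2 in the Ptf1a cKO replicates. Digestive enzymes, 35 genes in the table, took 83.8 to 86.3% of the normalized counts over genes in control libraries and 39.5 to 66.2% in Ptf1a cKO libraries. The choice of scale therefore matters: the median of all genes changed by 0.036 (log2) on the authors' scale and by 1.49 when every library was given the same total. The table has a floor as well, because the highest library of every gene reached at least 27.6 normalized counts. In whole-organ RNA, fewer cells of a type and less RNA per cell cannot be told apart.

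Klf5 and Klf6 were higher in Ptf1a cKO pancreata (2.67-fold and 1.43-fold as ratios of mean normalized counts, 3 mice per group), and Klf15, the most abundant member per kilobase of exon, fell to 48.5% of its mean control level on the authors' scale, while with the same total for every library its log2 change was 0.45 and did not pass the test. The other 6 members did not pass the test in either direction. The 2 members called higher compare with 17.1% of all genes called higher, and the 1 member called lower with 16.8% of all genes called lower. Values of all 3 Ptf1a cKO libraries lay above all 3 control values for Klf4, Klf5 and Klf6, which was the case for 26.5% of all genes. They lay below for Klf15, which was the case for 24.3% of all genes. The groups overlapped for the other 5 members. With the same total for every library, where all 9 members lay above 0, 8 were called higher in limma, beside 93.6% of all genes, and 1.26% of all genes were called lower. On the authors' scale the median log2 change of the members was 0.14, beside 0.036 over all genes. These counts cover only members with a row in the table. Klf5 is there through its Ptf1a cKO libraries alone, since its control values all lay under the floor of 27.6.

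**Figure D1:**
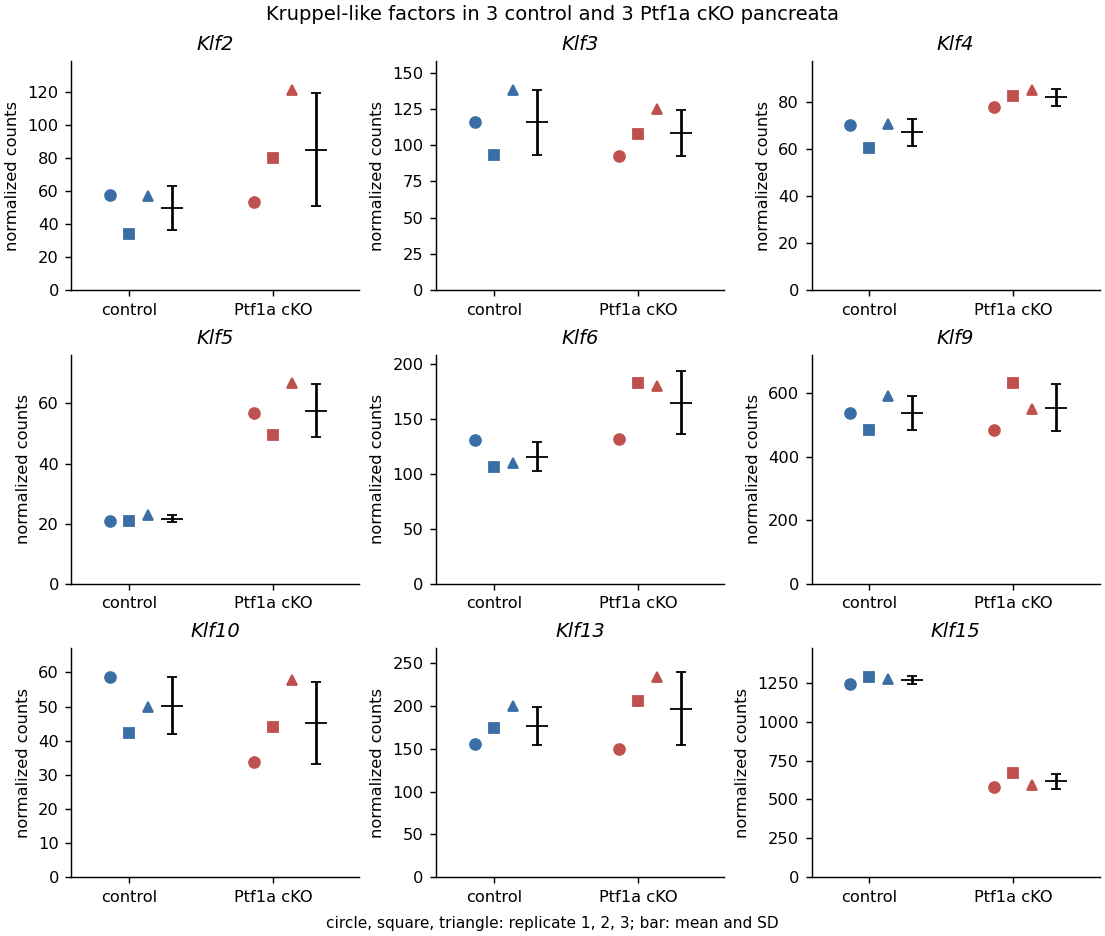
Normalized read counts of the 9 members in each library, with 1 panel per gene (y axis, normalized counts on the authors' scale, starting at 0) and the control and Ptf1a cKO groups side by side. Circles, squares and triangles are replicates 1, 2 and 3, and bars give the mean and SD of 3 mice. Klf15 separates downward and Klf5 upward without overlap on this scale (with the same total for every library the log2 change of Klf15 was 0.45), whereas Klf6 separates by only the gap between 131 and 132.

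Klf15 belongs to the members that govern metabolism: it is a glucocorticoid-induced activator of amino acid breakdown and gluconeogenesis genes in liver and muscle. It had 1240.2, 1291 and 1278 normalized counts in control replicates 1 to 3 and 581, 671 and 596 in Ptf1a cKO replicates 1 to 3. The control libraries lay close together and every Ptf1a cKO library lay at about the same much lower level, with no overlap. Klf15 thus went from 1269.9 ± 26.5 to 616 ± 48.6 normalized counts (mean ± SD, n = 3 each). The log2 change was -1.04 (SE 0.11, 95% interval -1.29 to -0.80, adjusted p = 2.62e-04), and 0.45 with the same total for every library (adjusted p = 0.0695), where the median gene stood at 1.49. Relative to the median gene of that scale the change was -1.04, a distance that the scaling of whole libraries hardly alters. It was called in all 6 fits that left out 1 library, with log2 changes between -1.11 and -1.002. Over all genes, 11.4% had a larger absolute log2 change. The exact two-sided permutation test gave p = 0.1, the smallest that 3 against 3 mice allow.

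Klf9 is another glucocorticoid and thyroid hormone target, a repressor that works with SIN3A and is linked to the daily rhythm of many tissues. Control replicates 1 to 3 had 538, 483 and 592 normalized counts and the Ptf1a cKO replicates 484, 632 and 550.4. The groups overlapped over almost their whole range. The log2 change of 0.042 (95% interval -0.26 to 0.35) did not pass the test (adjusted p = 0.830), and the interval leaves room for changes of either sign. Klf13, a factor known from T cells and heart, had 155, 175 and 199.6 normalized counts in control and 150.3, 206 and 234 in Ptf1a cKO pancreata. Its groups overlapped as well, with Ptf1a cKO replicate 1 the lowest of the 6 libraries and replicates 2 and 3 the highest. Its log2 change was 0.14 (95% interval -0.25 to 0.53, adjusted p = 0.563).

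Klf5 promotes proliferation in intestinal crypts and other progenitor epithelia and is a target of the ubiquitin ligases WWP1 and FBXW7. It had 20.9, 21.0 and 23.0 normalized counts in control replicates 1 to 3 and 56.7, 49.4 and 66.7 in Ptf1a cKO replicates 1 to 3. All Ptf1a cKO libraries stood clear of the control libraries, which were nearly equal to each other. The means were 21.6 ± 1.17 and 57.6 ± 8.73 normalized counts (SD, n = 3 mice each). The log2 change was 1.28 (SE 0.21, 95% interval 0.81 to 1.74, adjusted p = 0.00188). It was called in each fit that left out 1 library, with log2 changes from 1.17 to 1.38. Over all genes, 7.29% had a larger absolute log2 change. At 20.9 to 23.0 normalized counts the pseudocount of 3.41 pulls the fitted change toward 0, and Klf5 was above the floor of the table in the Ptf1a cKO libraries alone.

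Klf6 is an injury-induced activator with a role in TGF-beta signalling and in stellate cells. Control replicates 1 to 3 had 131, 106 and 110.3 normalized counts, against 132, 183 and 180.0 in Ptf1a cKO replicates 1 to 3. Ptf1a cKO replicate 1 was barely above the highest control library, while replicates 2 and 3 were well above all others. The means were 116 ± 13.1 and 165 ± 28.6 normalized counts (SD, n = 3 each). The log2 change of 0.49 (SE 0.16, 95% interval 0.14 to 0.84) was called at an adjusted p of 0.0379 in limma. The call held without control replicate 1 and without Ptf1a cKO replicate 1, and was lost without control replicate 2 (adjusted p = 0.121), control replicate 3 (0.0910), Ptf1a cKO replicate 2 (0.0951) or Ptf1a cKO replicate 3 (0.121), with log2 changes from 0.41 to 0.64. With the same total for every library but without digestive enzymes, the log2 change was 0.31 and the call was lost (adjusted p = 0.219).

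Klf10, an early target of TGF-beta that limits cell growth, had 58.8, 42.2 and 50.0 normalized counts in control and 33.6, 44.1 and 57.8 in Ptf1a cKO libraries. The Ptf1a cKO libraries held the lowest of the 6 values and one close to the highest, so the groups overlapped. Its log2 change was -0.16 (95% interval -0.67 to 0.35, adjusted p = 0.603) on the authors' scale and 1.24 with the same total for every library. Klf10 and Klf6, both described as TGF-beta targets, thus had fitted changes of opposite sign on the authors' scale, of which that of Klf6 alone passed the test; the difference between them was not tested.

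Klf4, a pluripotency factor that also acts in endothelium and gut epithelium, had 70.5, 60.7 and 70.6 normalized counts in control and 78.2, 82.7 and 85.4 in Ptf1a cKO pancreata. Each Ptf1a cKO library was above each control library, by a narrow margin. The means were 67.3 ± 5.70 and 82.1 ± 3.64 normalized counts, and the log2 change of 0.28 (SE 0.13, 95% interval -0.026 to 0.58) did not pass the test (adjusted p = 0.138). No fit that left out 1 library called it. Klf2, a regulator of quiescence in endothelium and T cells, had 57.6, 34.2 and 56.8 normalized counts in control and 53.4, 80.0 and 121 in Ptf1a cKO libraries. The groups overlapped, with Ptf1a cKO replicate 1 inside the control range and replicate 3 far above it. The log2 change of 0.70 (95% interval 0.030 to 1.37) had the largest standard error of the members (0.30), and the adjusted p was 0.0971. Without Ptf1a cKO replicate 1 the change was 0.98 and was called (adjusted p = 0.0330), and without Ptf1a cKO replicate 3 it was 0.41.

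Klf3, a repressor that recruits CTBP proteins, had 116, 93.5 and 138 normalized counts in control and 92.6, 108 and 125 in Ptf1a cKO libraries. The groups overlapped fully. Its log2 change was -0.087 (95% interval -0.47 to 0.30, adjusted p = 0.723) on the authors' scale and 1.37 with the same total for every library. A gene on the opposite strand, Gm20033, overlaps Klf3, and the strand setting of the counting is not given in the sources used here, so reads of the 2 genes cannot be told apart. Of the stretches of 50 bases, the read length, in the members' transcripts, at most 0.35% (Klf3) also occurred in another gene, and none did for Klf2, Klf6, Klf9, Klf10 and Klf15.

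**Figure D2:**
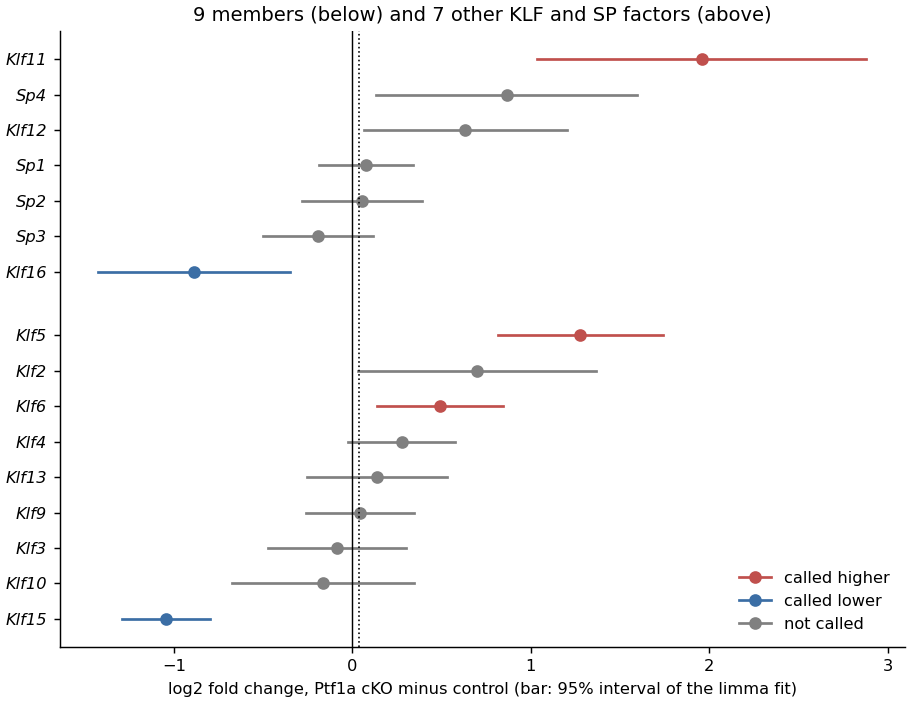
Log2 change of each member (lower block) and of the 7 other KLF and SP factors (upper block), Ptf1a cKO minus control on the authors' scale, with the 95% interval of the limma fit. Red marks genes called higher, blue genes called lower and grey genes not called, and the dotted line is the median of all genes at 0.036. Klf5 at 1.28 and Klf15 at -1.04 have intervals clear of 0 (with the same total for every library Klf15 stood at 0.45). The intervals of Klf6 (0.14 to 0.84) and Klf2 (0.030 to 1.37) also lie above 0, though Klf2 was not called. Those of Klf3, Klf4, Klf9, Klf10 and Klf13 include 0.

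Levels of different genes were compared per kilobase of exon. In control pancreata Klf15 stood first at 455 normalized counts per kilobase (range 444 to 463) and Klf9 second at 112. Klf2 (26.8), Klf6 (26.3), Klf13 (23.4) and Klf4 (22.1) followed with ranges that overlapped between neighbours in this order. Klf10 (12.04) and Klf3 (10.3) came next, with ranges that overlapped each other, and Klf5 was last at 4.15. In Ptf1a cKO pancreata the first 4 places were unchanged, with Klf15 at 221 normalized counts per kilobase, Klf9 at 115, Klf2 at 46.0 and Klf6 at 37.6, and the ranges of Klf2 and Klf6 overlapped. Klf4 (26.9) and Klf13 (26.2) overlapped, and so did Klf5 (11.1), Klf10 (10.8) and Klf3 (9.63). Klf5 thus moved from a place of its own at the bottom into the range of Klf10 and Klf3.

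Shares of the members' summed level per kilobase do not depend on how libraries are scaled. Klf15 made up 64.0 to 68.9% of that sum in control libraries and 40.2 to 47.3% in Ptf1a cKO libraries. The share of Klf9 went from 15.0 to 17.2% in control to 21.5 to 24.3% in Ptf1a cKO libraries, although its own level did not pass the test on the authors' scale. Klf5 held 0.582 to 0.617% in control and 1.75 to 2.48% in Ptf1a cKO libraries. Klf6 held 3.51 to 4.32% and then 6.83 to 7.72%, and Klf2 2.76 to 4.52% and then 6.57 to 12.4%. Since shares sum to a fixed whole, the fall of the Klf15 share alone raises those of the others.

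Ratios of 2 members within a library do not depend on the scaling either. Klf15 to Klf9 was 2.30, 2.67 and 2.16 in control replicates 1 to 3 and 1.20, 1.06 and 1.08 in Ptf1a cKO replicates 1 to 3 (as normalized counts, not per kilobase). The groups lay far apart, and the ratio was lower in every Ptf1a cKO library. Klf5 to Klf15 was 0.0168, 0.0163 and 0.0180 in control and 0.0976, 0.0735 and 0.112 in Ptf1a cKO libraries, a 5.55-fold difference of the means. Klf5 had the largest rise of the members and Klf15 the largest fall, each without overlap on the authors' scale. Their ratio was therefore bound to separate and to reach the smallest p of the permutation test. Klf5 is also in the table through its Ptf1a cKO libraries alone, which bears on both of its ratios. Klf5 to Klf9 (log2 change 1.36) and Klf6 to Klf9 (0.46) were also higher in every Ptf1a cKO library, as was Klf2 to Klf9 (0.69), where the nearest libraries had 0.107 and 0.110. Each of these 5 ratios had p = 0.1 in the exact two-sided permutation test, the smallest possible here. Of the 7 ratios computed, the other 2, Klf4 to Klf9 (p = 0.2) and Klf13 to Klf9 (p = 0.7, both exact), overlapped between groups. Such a ratio shows that its members changed unequally and not which of them moved.

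**Figure D3:**
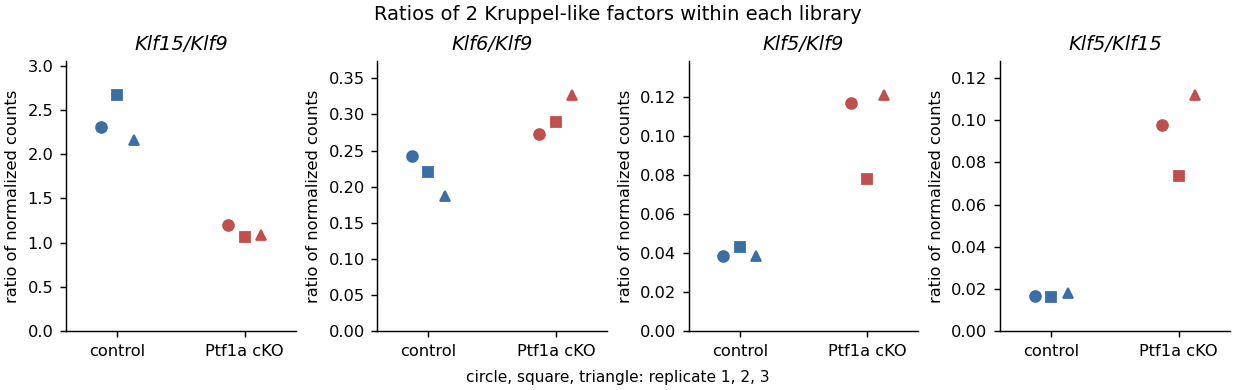
Ratios of normalized counts of 2 members within each library (y axis, linear from 0, 1 panel for each of 4 ratios), which are the same under any scaling of the libraries. Circles, squares and triangles are replicates 1, 2 and 3 of each group. Klf15 to Klf9 lies between 2.16 and 2.67 in control and between 1.06 and 1.20 in Ptf1a cKO libraries. Klf5 to Klf15 is higher in every Ptf1a cKO library, which the opposite changes of the 2 genes without overlap already entail.

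The Ptf1a cKO mice differed among themselves. Replicate 2 kept the most Ptf1a (70.1 normalized counts) and the largest sum of acinar marker genes, and it had the highest Klf15 (671) and the lowest Klf5 (49.4) of the 3, so that it was the nearest to control for both genes. Replicate 3 had the least Ptf1a (10.2) and the highest Klf2, Klf3, Klf4, Klf5, Klf10 and Klf13 of the Ptf1a cKO libraries. Replicate 2 was also the only male of the Ptf1a cKO group. For Klf15 the order of Ptf1a did not hold throughout, since replicate 3 had more Klf15 (596) than replicate 1 (581). With 3 mice the order is given as values only.

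The rest of the family has 16 genes, of which 7 had a row in the table. Klf11, a TGF-beta induced repressor known from islet beta cells, had 18.4, 16.3 and 4.69 normalized counts in control and 42.7, 53.2 and 74.8 in Ptf1a cKO libraries. The groups were far apart, and the control libraries were all under the floor of the table. Klf11 was called higher with a log2 change of 1.96 (SE 0.41, adjusted p = 0.00652), also in every fit that left out 1 library. Klf16, a binder of GC boxes, had 49.0, 70.7 and 68.1 normalized counts in control and 24.3, 42.5 and 31.1 in Ptf1a cKO libraries. The groups did not overlap, and the log2 change of -0.89 was called on the authors' scale (adjusted p = 0.0197), whereas with the same total for every library it was 0.50. The call of Klf16 was lost without control replicate 2 (adjusted p = 0.0808), control replicate 3 (0.0649) or Ptf1a cKO replicate 1 (0.0602).

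Klf12 and Sp4 were higher in all Ptf1a cKO libraries than in all control libraries without being called. Klf12 had 26.5, 21.1 and 20.4 normalized counts in control and 41.3, 28.8 and 41.8 in Ptf1a cKO libraries (log2 change 0.63, adjusted p = 0.0811), with control libraries all under the floor of the table, and without Ptf1a cKO replicate 2 it was called (0.79, adjusted p = 0.0433). Sp4 had 16.5, 31.1 and 24.5 against 40.7, 32.4 and 70.0 normalized counts (log2 change 0.86, adjusted p = 0.0661), and without Ptf1a cKO replicate 2 it was called as well (1.09, adjusted p = 0.0286). The nearest libraries of the groups were close in both genes. Sp1, Sp2 and Sp3, the broadly expressed factors that bind the same GC boxes, had log2 changes of 0.077, 0.055 and -0.19 on the authors' scale, and none passed the test. Their values overlapped between groups. Antisense genes overlap Sp2 and Sp3, and 4.28% of the stretches of 50 bases of Klf12 also occurred in other genes.

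Of 10 corepressors and acetyltransferases in the table (of 12 listed), 0 were called higher and 1 lower at an adjusted p under 0.05 in limma (1 and 3 at an unadjusted p under 0.05), with a median log2 change of 0.16. Over all genes 17.1% were called higher and 16.8% lower. The gene called was Ctbp1, the corepressor used by Klf3, with 748, 736 and 786 normalized counts in control and 601, 604 and 594 in Ptf1a cKO libraries. It lay lower in every Ptf1a cKO library on the authors' scale (log2 change -0.33, adjusted p = 0.0314), and its change was 1.16 with the same total for every library. The call rested on all libraries but Ptf1a cKO replicate 2, without which it held (adjusted p = 0.0473). Leaving out any other library lost it, with adjusted p between 0.0570 and 0.0884. Ep300 (log2 change 0.17, adjusted p = 0.471) and Sin3a (0.15, adjusted p = 0.403) did not pass the test in limma on the authors' scale.

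Of 11 kinases, MEF2 factors and ubiquitin ligases that act on KLFs, 3 were called higher and 2 lower, with a median log2 change of 0.27. Wwp1, a ligase that marks KLF2 and KLF5 for degradation, had 197, 225 and 137 normalized counts in control and 525, 424 and 575 in Ptf1a cKO libraries. It was well apart between groups, with a log2 change of 1.45 (adjusted p = 7.10e-04). Fbxw7, the substrate arm of another ligase of KLF5, had 141, 157 and 177 against 84.9, 91.1 and 84.1 normalized counts. It thus lay lower in every Ptf1a cKO library on the authors' scale (log2 change -0.84, adjusted p = 0.00136), but its change was 0.62 with the same total. Mef2d, of the MEF2 family that induces Klf2 and Klf4 downstream of ERK5, had 368, 420.1 and 413 against 192, 221 and 201 normalized counts. It too was lower without overlap on the authors' scale (log2 change -0.96, adjusted p = 4.47e-04) and at 0.52 with the same total. Mef2a, of the same family, was called higher (log2 change 0.72, adjusted p = 0.0399) with overlapping groups. The call of Mef2a held without control replicate 3 and without Ptf1a cKO replicate 1, and was lost without control replicate 1 (adjusted p = 0.12), control replicate 2 (0.132), Ptf1a cKO replicate 2 (0.0733) or Ptf1a cKO replicate 3 (0.132). Mapk7, which encodes ERK5, had 41.5, 29.4 and 42.8 against 52.2, 59.4 and 63.7 normalized counts. It was called higher without overlap (log2 change 0.59, adjusted p = 0.0430), and the call held without control replicate 3 but was lost without any other single library (adjusted p from 0.0646 to 0.135). Transcript levels of ligases say nothing about the amount of KLF protein, which was not measured.

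Of 22 genes reported elsewhere as KLF targets, 16 were in the table, with 5 called higher, 3 lower and a median log2 change of 0.54. Bcat2, a branched-chain amino acid transaminase and Klf15 target in muscle, had 2024, 2099.8 and 1701 normalized counts in control and 1081, 1167 and 834 in Ptf1a cKO libraries. It fell without overlap on the authors' scale (log2 change -0.92, adjusted p = 0.00233), while its change was 0.57 with the same total. Prodh, the first enzyme of proline breakdown and also described as a Klf15 target, had 389, 395 and 227 against 134, 232 and 111 normalized counts. Its groups overlapped, its log2 change was -1.10 on the authors' scale (adjusted p = 0.0178) and 0.38 with the same total, and the call was lost without control replicate 1 (0.0713), control replicate 2 (0.0682), Ptf1a cKO replicate 1 (0.0567) or Ptf1a cKO replicate 3 (0.0574). Gpt, alanine transaminase, likewise described as a target of Klf15, had 433, 433 and 418 against 425, 396 and 347 normalized counts and did not pass the test (log2 change -0.14 on the authors' scale, adjusted p = 0.363).

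Targets tied to growth and matrix moved in both directions. Ccnd1, cyclin D1, a described target of Klf5 in epithelial cells, had 152, 170.0 and 198 normalized counts in control and 58.3, 91.9 and 78.1 in Ptf1a cKO libraries. It was lower without overlap on the authors' scale (log2 change -1.17, adjusted p = 0.00148), and 0.29 with the same total, so that Klf5 and Ccnd1 moved apart on the authors' scale. Col1a1, a collagen gene described as a Klf6 target in stellate cells, had 229, 216 and 284 against 584, 1419 and 1033 normalized counts (log2 change 1.96, adjusted p = 0.00102). Every Ptf1a cKO library was above every control library. Col1a1 is also one of the fibroblast markers. Cdkn1c, an inhibitor of the cell cycle, was next (log2 change 1.46, adjusted p = 0.0314), from control libraries all under the floor of the table, and its call was lost without control replicate 1 (adjusted p = 0.0515), control replicate 2 (0.0986), control replicate 3 (0.0833) or Ptf1a cKO replicate 3 (0.0610).

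Of 11 glucocorticoid response genes, 4 were called higher and 3 lower. Nr3c1, the glucocorticoid receptor, had 580.3, 636 and 633 normalized counts in control and 367, 384 and 391 in Ptf1a cKO libraries. Like Klf15 it was lower without overlap on the authors' scale (log2 change -0.69, adjusted p = 0.00139), with a change of 0.80 under the same total. The metallothionein genes Mt1 (log2 change -1.69) and Mt2 (-1.67), metal-binding proteins that are also abundant in acinar cells, were called lower, and under the same total their changes were -0.19 and -0.18. Errfi1, a feedback inhibitor of EGF receptor signalling, had the largest rise of this list (log2 change 1.44, adjusted p = 7.10e-04), and Per1, a clock gene induced by the receptor, rose as well (0.91, adjusted p = 0.00245). Tsc22d3, which encodes the glucocorticoid-induced protein GILZ, had 269, 307 and 299 against 445, 399 and 815 normalized counts and was called higher without overlap (0.84, adjusted p = 0.0232). Its call was lost without control replicate 1 (0.0819), control replicate 2 (0.0573) or control replicate 3 (0.0592). Fkbp5, a standard read-out of the receptor, did not pass the test (0.28, adjusted p = 0.436).

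Among 12 genes of the TGF-beta pathway in the table (of 15 listed), 4 were called higher and 2 lower, with a median log2 change of 0.38. Tgif1, a corepressor of SMAD complexes, rose most (log2 change 1.04, adjusted p = 0.00262), and Tgfbr2, the type II receptor and a described Klf target, rose by 0.88 (adjusted p = 0.00617). Ctgf, a matrix-associated target of the pathway, was called (0.98, adjusted p = 0.0441), but not without control replicate 1 (0.116), control replicate 2 (0.138), Ptf1a cKO replicate 1 (0.0577) or Ptf1a cKO replicate 3 (0.146). The signal transducers Smad2 (-0.42, adjusted p = 0.0263) and Smad3 (-0.41, adjusted p = 0.0279) were called lower on the authors' scale, and with the same total they stood at 1.05 and 1.06. The call of Smad2 was lost without control replicate 1 (0.0889), control replicate 2 (0.0923) or Ptf1a cKO replicate 1 (0.0878), and that of Smad3 in each fit without 1 library (adjusted p of 0.0591 to 0.0957) other than that without Ptf1a cKO replicate 2. Tgfb1, the ligand, had 27.8, 26.8 and 26.2 normalized counts in control and 32.6, 50.0 and 69.8 in Ptf1a cKO libraries and was just short of the threshold (log2 change 0.78, adjusted p = 0.0520). Of 11 immediate early genes in the table (of 16 listed), the class to which Klf2, Klf4, Klf6 and Klf10 belong, 5 were called higher and 2 lower, with a median of 0.76. Egr1 (log2 change 2.25, adjusted p = 0.00439) and Jun (1.58, adjusted p = 0.00265) had the largest rises, Egr1 from control libraries all under the floor of the table. Myc (-1.67, adjusted p = 9.07e-04) and Ier2 (-0.78, adjusted p = 8.84e-04) were called lower on the authors' scale, and with the same total they stood at -0.21 and 0.69.

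**Figure D4:**
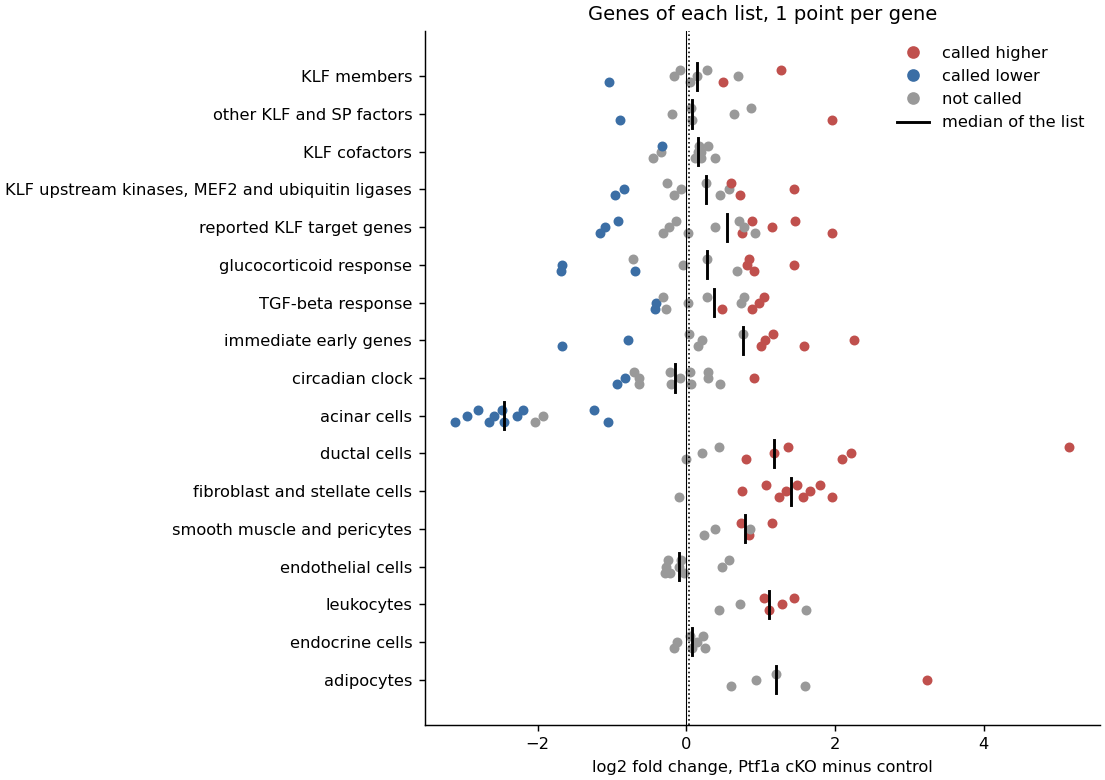
Log2 change, Ptf1a cKO minus control on the authors' scale, of every gene of each list, with 1 point per gene. Red and blue points are genes called higher and lower, grey points were not called, black bars are the list medians and the dotted line is the median of all genes at 0.036. The members have a median of 0.14 and range from -1.04 (Klf15, which stood at 0.45 with the same total for every library) to 1.28, acinar markers have a median of -2.46 and ductal markers of 1.18.

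Most markers of acinar, ductal and fibroblast cells differed between the groups. The part of any cell type in the changes of the KLFs was not tested. All 13 acinar markers lay below 0 and 11 were called lower (median log2 change -2.46), with a summed level of 10702700 to 13466500 normalized counts in control and 1323140 to 4095950 in Ptf1a cKO libraries. Cela2a, an elastase, and Cel, a lipase, fell most (log2 changes -3.11 and -2.95), and with the same total for every library Amy2b and Nr5a2 stood above 0 (0.25 and 0.43). Klf15 and the acinar sum were thus lower in the same 3 libraries on the authors' scale, though Klf15 was not with the same total. Of 9 ductal markers in the table, 6 were called higher and 0 lower in limma (6 and 0 at an unadjusted p under 0.05, median 1.18), and their sum, mostly Spp1, was 3995 to 4917 in control and 25891 to 110400 normalized counts in Ptf1a cKO libraries. Spp1, osteopontin, rose most (log2 change 5.14), Sox9, a ductal transcription factor, rose by 2.21 on the log2 scale, while the duct keratin Krt19 had -0.012 and did not pass the test. Among 10 fibroblast and stellate markers 9 were called higher (median 1.41, summed level 3017 to 3442 in control and 5944 to 10678 in Ptf1a cKO libraries), with Col1a1 (1.96) and Thy1 (1.79) ahead. Klf6, known from stellate cells, and these markers were thus higher together, and Ptf1a cKO replicate 1 was the lowest of its group in both. That replicate was also the lowest of its group for every other member except Klf5. The shared low replicate is therefore not particular to Klf6.

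For the members best known from vessels and blood, endothelial and leukocyte markers are given in the same way. Of 9 endothelial markers 0 were called in limma (median log2 change -0.10; 2 higher and 0 lower at an unadjusted p under 0.05), and their sum was 854 to 1071 normalized counts in control and 841 to 1032 in Ptf1a cKO libraries. Of 7 leukocyte markers, 4 were called higher (median 1.11), Lyz2 (1.44) and Itgam (1.29) foremost, with sums of 388 to 696 in control and of 1294, 1045 and 2357 in Ptf1a cKO replicates 1 to 3. Replicate 3, with the highest Klf2, also had the highest leukocyte sum. The other Ptf1a cKO libraries went the opposite way, since replicate 1 had a larger sum than replicate 2 but less Klf2 (53.4 against 80.0). The call of Itgam was lost without control replicate 2 (adjusted p = 0.0509). Smooth muscle and pericyte markers had 3 of 6 called higher (median 0.79), with Acta2 (1.15) and Myh11 (0.85) ahead, and the call of Acta2 was lost without control replicate 1 (adjusted p = 0.102), Ptf1a cKO replicate 1 (0.0957) or Ptf1a cKO replicate 3 (0.0961). Adipocyte markers had 1 of 5 called higher, Cfd (3.24, from control libraries all under the floor of the table), and their sum was largest in Ptf1a cKO replicate 3. Endocrine markers had 0 of 7 called in limma, also at an unadjusted p under 0.05, and sums of 11369 to 42640.3 in control and 5817 to 33247 in Ptf1a cKO libraries.

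Directions of the list genes were also read under the same total, which moves all genes up together (median gene 0.036 on the authors' scale, 1.49 there). All 43 list genes called higher on the authors' scale stayed above 0 there, and 15 of the 27 called lower came out above 0. Relative to the median gene of that scale none of them changed sign. These counts follow from the shared shift and are no separate check of direction. Without 1 library at a time, 26 of the 43 and 18 of the 27 were called in all 6 fits.

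**Figure D5:**
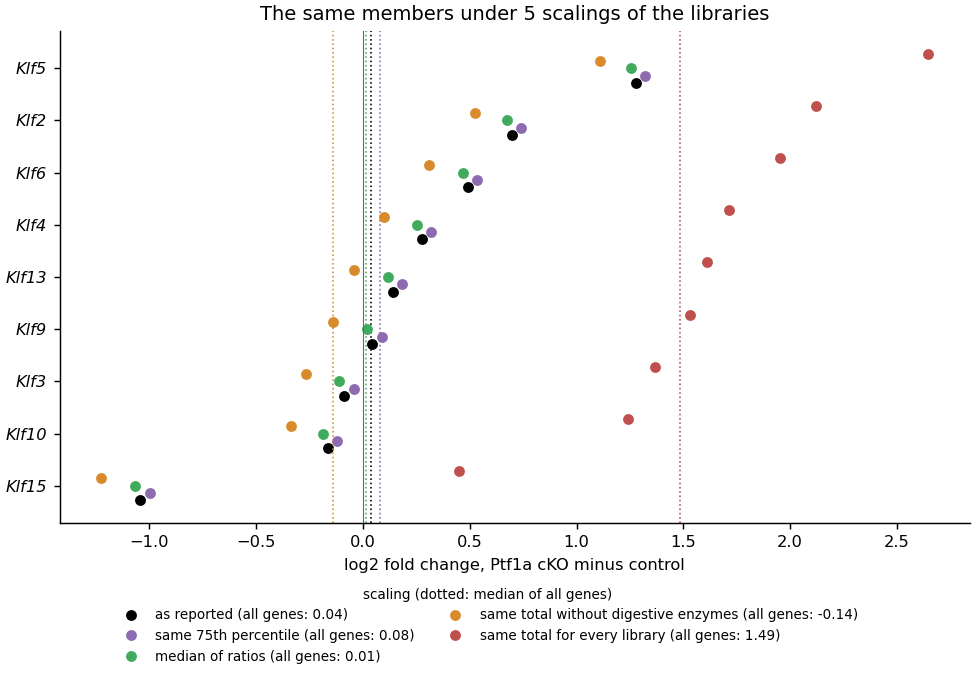
Log2 change of each member, Ptf1a cKO minus control, under the authors' scale and 4 other scalings of the libraries, with dotted lines at the median of all genes under each. With the same total for every library all 9 members lie above 0, Klf15 at 0.45 included, and the median gene at 1.49. Klf15 lies below the median gene and Klf5 above it under all 5 scalings. This has to be so, because a scaling moves the genes of a library together.

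The genes most like Klf5 and Klf15 over the 6 libraries were sought among the other 10244 genes, by the root mean square difference of log2 values, each gene centred on its own control mean. For Klf5 they were Cib1 (0.072), Nipsnap1 (0.073) and Sfi1 (0.083). Cib1 had 103, 94.4 and 104 normalized counts in control and 246, 199 and 269.5 in Ptf1a cKO libraries, with replicate 2 the lowest of its group as for Klf5. For Klf15 they were Pm20d2 (0.053), Usp31 (0.057) and Adap2 (0.064). Pm20d2 had 203, 211 and 211 normalized counts in control and 98.3, 102 and 101 in Ptf1a cKO libraries on the authors' scale. Likeness over 6 libraries in 2 groups is mostly a likeness of the difference between the groups.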

How the data were processed

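RNA of 6 mouse pancreata was sequenced by the authors as TruSeq libraries with single-end reads of 50 bases. Per the submitters' processing notes, TopHat2 2.0.4, Bowtie 0.12.7.0, SAMtools 0.1.18.0 and HTSeq 0.6.0 were used with build mm9, and the authors applied edgeR with TMM normalization. The deposited table gives a signal per gene symbol and library, namely normalized read counts with decimals. Whole reads could not be recovered, since the best step search put only 13.0 to 24.3% of low values within 0.05 of a whole number. The authors' methods give read numbers per library, but single values could not be turned back into reads, so precision rests on the 3 mice per group. 3 entries of the read counter that name no gene (75.7 to 82.6% of a library's normalized counts) were left out. 17 symbols had become dates.

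Values were divided by 13.6393, and log2(value + 0.25) was compared between groups in R 4.3.3 with limma 3.58.1 (eBayes with a trend, no covariate, two-sided, Benjamini-Hochberg over 10245 genes, threshold 0.05). No gene fell under the mean of 0.25 required. Exact permutation tests over the 20 splits gave a smallest p of 0.10. The fit was tested on simulated data. Other pseudocounts, filters, scalings and fits, a replicate block, sex as a covariate and each library left out were alternatives. Exon lengths came from GENCODE vM21 and promoters from RefSeq (both GRCm38), by symbol. The members and lists were chosen with earlier results of these data known. All members in the table are named, with all other KLF and SP genes in it. Of each other list, the called genes with the 2 largest rises and the 2 largest falls are named, with genes whose role in the KLF pathway is described and the 3 genes most like Klf5 and Klf15. Figures and summaries used Python 3.11.15.

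Same-numbered control and Ptf1a cKO libraries were compared by the correlation of their deviations from the group means over genes, which was 0.039, 0.13 and 0.14. Since these are not all over 0.1, the numbers were not taken to pair the mice. The values of 1 marker gene are not reported here.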

Additional observations from a re-analysis of the deposited data

How the results depend on the processing

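Klf5 was called higher under every alternative that tested it, and Klf15 lower under all but the same total for every library. Klf5 is in the table through its Ptf1a cKO libraries alone, and none of these alternatives removes that selection. The alternatives moved the number of members called higher (2) to 1 with genes of a mean of at least 100 normalized counts (6070 genes, where Klf5 was not tested), without a mean-variance trend, with the replicate block, at an adjusted p under 0.01, with the same total without digestive enzymes and in females only, an alternative chosen after seeing the data. With the same total for every library 8 members were called higher and 0 lower, beside 93.6% and 1.26% of all genes. Leaving out 1 library gave 1 to 3 called higher, beside 1174 to 1854 of all genes. Of all genes, 1751 were called higher in the reported fit. That count was 988 (of 6070) with a mean of at least 100 normalized counts, 1684 without the trend and 1814 with the replicate block. It was 832 at an adjusted p under 0.01, 1042 with the same total without digestive enzymes and 1362 in females only.

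Klf6 (0.49) was no longer called without the trend (adjusted p = 0.0593, log2 change 0.49), with the replicate block (adjusted p = 0.0565, log2 change 0.49), with the same total without digestive enzymes (0.31, adjusted p = 0.219) and in females only (0.50, adjusted p = 0.0906). Without 1 library its log2 change ranged from 0.41 to 0.64, that of Klf2 from 0.41 to 0.98, of Klf3 from -0.23 to 0.046, of Klf9 from -0.055 to 0.14, and of Klf10 from -0.35 to 0.017. Under the same total Klf2 was called at 2.12, Klf4 at 1.71, Klf9 at 1.53 and Klf13 at 1.61, and the sign turned for Klf3 (1.37), Klf10 (1.24) and Klf15 (0.45), on a scale where the median gene stood at 1.49. Without digestive enzymes in the total the sign turned for Klf9 (-0.14) and Klf13 (-0.041), where the median gene stood at -0.14, and in females only for Klf9 (-0.052).

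The replicate block, with mice of the same number as pairs, changed no call of a member other than that of Klf6. Each control library correlated best with the Ptf1a cKO library of its own number, but Ptf1a cKO replicate 1 correlated best with control replicate 2 (0.083), so the numbers were not read as pairs. Models of read counts, listed as alternatives for recovered reads, were not run. Each group has 3 mice, from which changes the size of that of Klf4 (0.28) could not be told from 0, and spread between mice was largest for Klf2. Genes with low values, Klf5 in control among them, have fold changes pulled toward 0 by the pseudocount.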

Other observations

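Genes of the circadian clock were listed because Klf9, Klf10 and Klf15 follow daily rhythms in other tissues. Of 14 in the table (of 16 listed), 1 was called higher and 2 lower at an adjusted p under 0.05 in limma, with a median log2 change of -0.15. Clock, which encodes the partner of BMAL1, had 316, 357 and 416 normalized counts in control and 192, 207 and 206 in Ptf1a cKO libraries, lower without overlap on the authors' scale (log2 change -0.83, adjusted p = 0.00145) and at 0.65 with the same total for every library. Tef, an output gene, was also called lower on the authors' scale (-0.93, adjusted p = 0.0197; 0.55 with the same total), and its call was lost without control replicate 1 (0.0790), control replicate 2 (0.0734) or Ptf1a cKO replicate 1 (0.0631). Per1 was the gene called higher. Nr1d1, a repressor of the clock loop, had 473, 378 and 216 against 436, 333 and 491 normalized counts, with overlap (adjusted p = 0.417). Dbp, an output gene with a strong daily swing, had 42.7, 44.0 and 10.1 against 31.6, 30.3 and 61.4 normalized counts, and control replicate 3 stood apart from the other control libraries. The hour at which the mice were killed is not given in the sources used here.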
